A study of Rattus norvegicus with 79 samples.

Results

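The medial prefrontal cortex (mPFC) was compared with hippocampal region CA1 within the same young rats. Both regions were sequenced in 11 young animals, so 22 of the 79 RNA sequencing libraries of the study entered the comparison, and the 2 libraries of an animal were paired by the animal number in their names. The animals were male F344 rats of 5 to 6 months, and the study also holds 20 aged rats of 17 to 22 months with libraries of both regions, and white matter beside the mPFC from 8 of the young and 9 of the aged rats. All rats had been food restricted for an operant set shifting task, had then been trained in a water maze, and were killed 2 weeks later, so none of the 22 libraries comes from a rat without training. The mPFC sample held the prelimbic and infralimbic areas, and region CA1 was dissected from a slice of the dorsal hippocampus. No drug, surgery or transgene separates the groups, and region is the only labelled factor within a rat.

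The prelimbic and infralimbic areas are layered neocortex. Their pyramidal neurons lie in several layers that differ in their targets, with inhibitory interneurons among them, and the areas are known for working memory and for the switching between rules that the set shifting task asks for. Region CA1 is older cortex with a narrow layer of tightly packed pyramidal neurons, fed by the Schaffer collaterals of region CA3 and by the entorhinal cortex, and is known for memory of places and episodes. Both samples are tissue pieces with neurons, glia and vessels, and in such bulk RNA fewer cells of a type and less RNA per cell cannot be told apart.

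The deposited tables list genes by Ensembl number, and 0 of the 26689 numbers could be paired with a symbol here. The region labels could therefore not be checked against markers such as those of CA1 pyramidal cells or cortical layers, and the functions of the genes below are not given. The labels were instead checked by the agreement of the libraries with each other.

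Reads on genes in the mPFC libraries ranged from 6.85 to 17.04 M with a median of 13.2 M (12.7 ± 3.31 M, SD, n = 11), and in the CA1 libraries from 5.29 to 13.8 M with a median of 9.11 M (9.10 ± 2.08 M, SD, n = 11). The mPFC library was the deeper one in 9 of 11 rats, by 3.61 M reads on average (two-sided exact permutation test over sign flips within rats, p = 0.0137, adjusted p = 0.0205 over 3 measures). Without rats 121413 and 121445 the depth difference was 2.98 M and no longer passed (exact permutation p = 0.0547). Within the series of animal numbers the mPFC was deeper in 2 of 3 rats numbered 1918 to 1920, in 3 of 4 numbered 121412 to 121448 and in 4 of 4 numbered 2172 to 2176.

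The mPFC libraries also spread their reads over slightly more genes. With every library thinned to 5.29 M reads, the depth of the shallowest, 15491 ± 141 genes had at least 5 reads in the mPFC and 15286 ± 231 in region CA1 (SD, n = 11 each, higher in the mPFC in 9 of 11 rats, exact permutation p = 0.0303, adjusted p = 0.0303). Without thinning the means were 16709 and 16046 genes. The 100 most abundant genes took 16.1 ± 0.43% of thinned reads in the mPFC and 17.2 ± 0.828% in region CA1 (SD, n = 11), with a larger share in region CA1 in 10 of 11 rats (exact permutation p = 0.00684, adjusted p = 0.0205). The exception in this share was rat 121413, in which the CA1 library had 15.4%, the lowest value of the CA1 libraries.

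One library went against its label in part, and its values have to be known before the genes are read. For each rat, genes that differed by at least 2 log2 units between the regions in the other 10 rats, in the same direction in at least 9 of them, were used to place its libraries on a scale from 0, the mean of the other CA1 libraries, to 1, the mean of the other mPFC libraries. All CA1 libraries but one lay between -0.10 and 0.07, and the mPFC libraries lay between 0.88 (rat 1920) and 1.04. The library labelled CA1 of rat 121413 lay at 0.61, over 365 genes high in the mPFC and 170 genes high in region CA1. The position was 0.62 on the first set and 0.56 on the second, and 61.3% of its region genes lay nearer to the mPFC. White matter libraries of young rats, of neither region, lay at 0.49 to 0.73 on the scale with genes chosen without rat 121413. The position of the CA1 library of rat 121413 is therefore not by itself a measure of mPFC content.

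The genes of this library did not shift by an equal amount. Of the 196 genes high in the mPFC that averaged 50 normalized counts or more there, the median reached 42.4% of the mPFC level (quartiles 27.1 and 66.0%), against medians of 11.3 to 17.8% in the other CA1 libraries, and 22 of the 196 were at or above the full mPFC level. Of the 125 genes high in region CA1, the median reached 34.3% of the level in the other CA1 libraries (quartiles 20.2 and 51.3%), while 8 were under 5% and 5 were at 100% or more. Its correlation across genes was 0.947 with the other CA1 libraries and 0.955 with the mPFC libraries, as medians. For all other CA1 libraries the first of these medians was the higher one.

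The CA1 library of rat 121445 stood apart in another way. It lay at -0.10 on the regional scale, among the CA1 libraries, but 380 genes were at least 1 log2 unit above and 783 at least 1 log2 unit below all other 21 libraries, against 0 to 36 genes above and 0 to 94 below in the 20 libraries other than these CA1 libraries of rats 121413 and 121445. It was also the shallowest library (5.29 M reads). The first principal component of all tested genes held 40.8% of the variance and placed the mPFC libraries at 30.3 to 54.8 and 10 CA1 libraries at -84.0 to -33.7, with the CA1 library of rat 121413 at 9.87. The second component, with 12.9%, held the CA1 library of rat 121445 at 114.5 and all others between -39.2 and 13.6. The cause of either departure was not tested. Results below are given with all 11 rats, and again without these rats where the value moves.

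**Figure D1:**
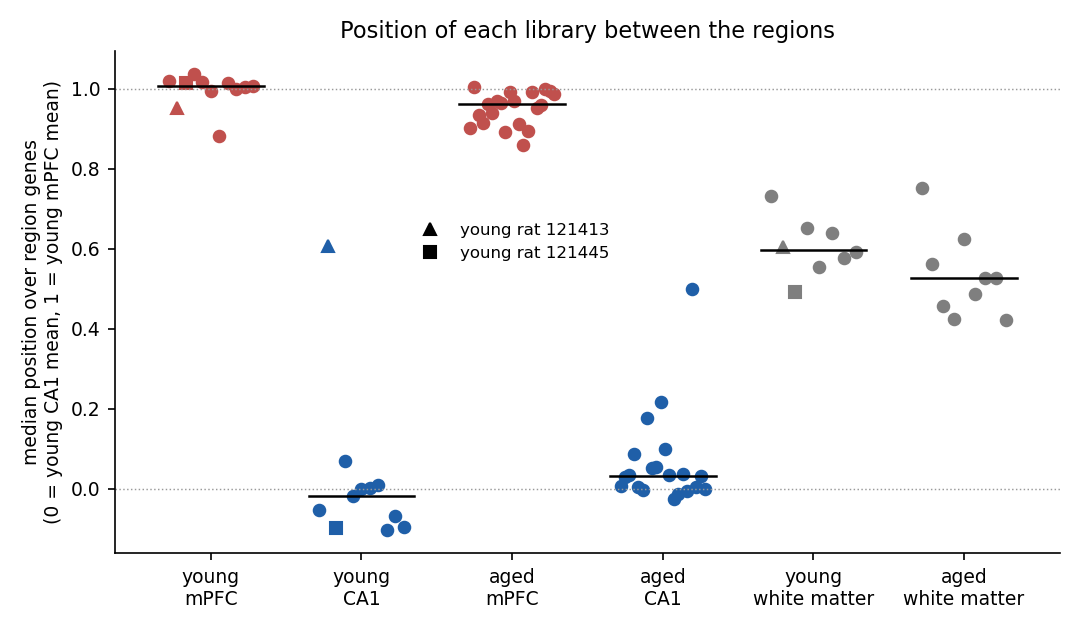
Each point is a library, placed between the mean of young CA1 libraries (0) and of young mPFC libraries (1) by its median over region genes, and black lines are group medians. Young mPFC and CA1 libraries were placed with genes from the other 10 rats, all other libraries with genes chosen in the young rats without rat 121413. The CA1 library of rat 121413 (triangle) lies at 0.61, far from the other young CA1 libraries.

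The region comparison asked which genes differ between the mPFC and region CA1 of the same young brain. Of 16776 genes whose mean normalized count exceeded 5 in either region, 6270 differed at a Benjamini-Hochberg adjusted p under 0.05 (limma, rat as a block), which is 37.4% of the genes tested. They split into 3326 genes higher in the mPFC (19.8%) and 2944 genes higher in region CA1 (17.5%). A difference of at least 1 log2 unit, a doubling, was reached by 1118 of the first (6.66% of genes tested) and by 649 of the second (3.87%). Without rat 121413 there were 6915 calls (41.3%), 3729 higher in the mPFC (22.3%) and 3186 higher in region CA1 (19%), of which 1322 (7.89%) and 740 (4.42%) reached 1 log2 unit. Without rats 121413 and 121445 there were 7058 calls (42%), 3694 (22%) and 3364 (20%), of which 1226 (7.3%) and 761 (4.53%) reached 1 log2 unit.

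The split by direction moved when each table kept its own deposited scale and, less, with the test. On other scales common to both tables it stayed, with 53.6% of calls higher in the mPFC on the TMM scale and 54.2% on total reads. The edgeR test on the whole reads called 3051 genes higher in the mPFC and 3139 higher in region CA1, so that the mPFC held 49.3% of its calls. The authors normalized each region on its own, and common size factors over the 22 libraries were 0.901 to 0.921 times the deposited ones in the mPFC and 0.983 to 0.997 times in region CA1. With the values as deposited, the median of all genes moved by -0.12 log2 units, from 0.02 to -0.11, and 2434 genes were called higher in the mPFC against 4617 in region CA1. The mPFC then held 34.5% of the calls in place of 53.0% on the common scale. Differences below are relative to the common scale. At a difference of 1 log2 unit or more the deposited scale gave 893 genes higher in the mPFC and 821 higher in region CA1.

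Most differences were small. Over all genes tested, the absolute difference had a median of 0.30 log2 units, a 90th percentile of 1.06 and a 99th percentile of 2.91. Among called genes the median was 0.65 log2 units with a median standard error of 0.14, and 2161 of the 6270 (34.5%) differed by less than 0.5 log2 units. Up to 3 log2 units, fewer of the large differences lay on the CA1 side. A difference of 2 log2 units or more was found in 322 genes toward the mPFC and in 143 toward region CA1, and one of 3 log2 units or more in 102 and 50 genes. At 4 log2 units or more the numbers were 28 genes higher in the mPFC and 25 genes higher in region CA1. Without rat 121413 these counts were 364 and 175 at 2 log2 units, 124 and 60 at 3, and 30 and 26 at 4. Without rat 121445 as well they were 345 and 179 at 2 log2 units, 118 and 63 at 3, and 29 and 30 at 4, where the order of the regions turned.

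The share of genes called rose with the level of expression. Of 1328 genes with a mean count under 10 over both regions, 26.0% were called, of 4777 genes from 10 to 100, 31.4%, of 8259 genes from 100 to 1000, 39.6%, and of 2412 genes at 1000 or more, 47.8%. The median standard error fell over these classes from 0.37 to 0.22, 0.12 and 0.10 log2 units. On the common scale, the called differences of weakly expressed genes were mostly higher in the mPFC (238 against 107 genes in the lowest class and 886 against 615 in the next). From 100 to 1000 more were higher in region CA1 (1745 against 1526), and at 1000 or more 676 were higher in the mPFC against 477. Called differences were larger among low genes, with a median size of 1.51 log2 units in the lowest class and 0.50 in the highest. Genes entered on the mean of either region, so a weak gene could enter through its higher region alone. How far this filter or the library depth bears on the sizes and the split in the lowest class was not tested.

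**Figure D2:**
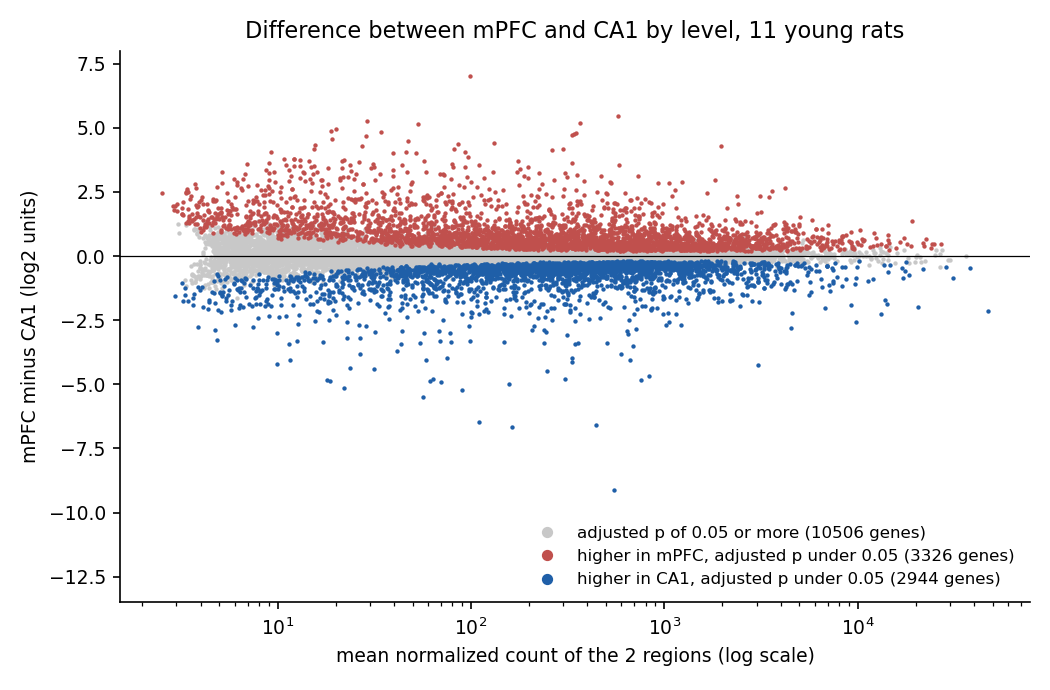
Each point is 1 of 16776 genes, with the mean normalized count of the regions on the horizontal log axis and the difference of the mPFC minus region CA1 in log2 units on the vertical axis. The 3326 genes called higher in the mPFC are red, the 2944 called higher in region CA1 are blue and the rest are grey; called genes lie at all levels, and those near 0 are called at high levels only.

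A stricter view asks for regions that do not overlap. In 558 genes (3.33% of genes tested) each of the 11 mPFC libraries lay above each of the 11 CA1 libraries, and in 339 genes (2.02%) the reverse held. Leaving out any rat can only relax this rule. With the genes and scale of all 11 rats kept, leaving out rat 121413 with both its libraries gave 926 and 744 genes, and leaving out each of the other rats in turn gave 572 to 714 and 353 to 423 genes. With the scale set anew, 16727 genes were tested both with all rats and without rat 121413, and 925 (5.53%) and 745 (4.45%) of them did not overlap. Without rat 121445 as well there were 1065 (6.37%) and 883 (5.28%) of 16710 genes tested both ways. Read within rats, 1217 genes (7.25% of genes tested) were higher in the mPFC in all 11 rats and 929 (5.54%) were higher in region CA1 in all 11. Of these genes, 2137 were among the calls. Without rat 121413 the numbers were 1759 (10.5%) and 1533 (9.16%) of the 16727 genes, over the remaining 10 rats.

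Few genes were close to absent from one region. A mean normalized count of at least 20 in one region and under 1 in the other was found for 4 genes of the mPFC and 8 genes of region CA1. Without rat 121413 there were 10 such genes of the mPFC and 9 of region CA1, and without rat 121445 as well 11 and 8.

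The genes with the largest differences are given by number, 2 in each direction, with the normalized count of each region. ENSRNOG00000030111 had 138 to 267 normalized counts in the mPFC with a median of 192, and 0 to 17.05 with a median of 0 in region CA1, where 8 of 11 libraries had no read. The highest CA1 value, 17.05 from 16 reads, came from rat 121413, and the other 10 CA1 libraries held 3 reads in all. The regions did not overlap, and the mPFC was higher in 11 of 11 rats by 7.01 log2 units (SE 0.324, limma adjusted p = 4.23e-10) and by 7.29 without rat 121413. With so few reads in region CA1 the fitted size depends on the pseudocount, and it was 9.56 with 0.1 and 5.05 with 5 in place of 1.

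ENSRNOG00000024310 was expressed more strongly, at 784 to 1320 normalized counts in the mPFC (median 1094) and 3.10 to 591 in region CA1 (median 14.7). Rat 121413 again held the highest CA1 value, 591, and for this gene it also held the lowest mPFC value, 784. The other CA1 libraries reached 67.4 at most. The mPFC was higher in 11 of 11 rats by 5.44 log2 units (SE 0.512, limma adjusted p = 6.13e-07). Without rat 121413 the difference in ENSRNOG00000024310 was 5.94.

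ENSRNOG00000002549 showed the largest difference of the comparison, toward region CA1. It ranged from 168 to 3607 normalized counts in region CA1 (median 900), while the 11 mPFC libraries held 11 reads in all, with 0 to 3.30 normalized counts and 6 libraries at 0. Both ends of the CA1 range came from the libraries that stood apart, 168 in rat 121413 and 3607 in rat 121445. Region CA1 was higher in 11 of 11 rats, and the mPFC minus CA1 difference was -9.11 log2 units (SE 0.332, limma adjusted p = 3.61e-11) with all rats and -9.02 without these 2 rats. With a pseudocount of 0.1 it was -11.19 and with 5 it was -7.27.

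ENSRNOG00000018580 lay at 38.4 to 535 normalized counts in region CA1 (median 318) and at 0 to 9.91 in the mPFC (median 1.84). The lowest CA1 value was that of rat 121413, and the next lowest was 243. The regions did not overlap, and the mPFC minus CA1 difference was -6.67 log2 units (SE 0.355, limma adjusted p = 1.53e-09, higher in region CA1 in 11 of 11 rats). Without rat 121413 the difference in ENSRNOG00000018580 was -7.01, and with all rats it was -7.68 with a pseudocount of 0.1 and -5.34 with 5.

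**Figure D3:**
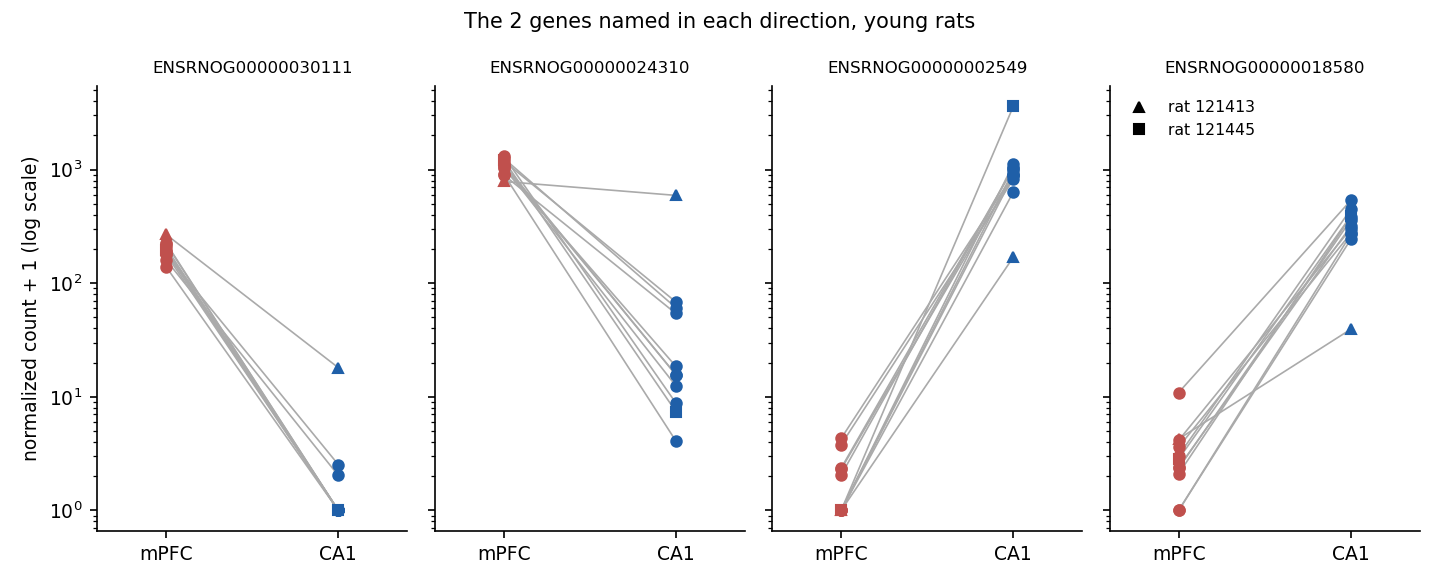
Normalized count + 1 on a log axis in the mPFC (red) and region CA1 (blue) of 11 young rats, a line joining the libraries of a rat, for the 2 genes named in each direction. In each panel the CA1 value of rat 121413 (triangles) is the one nearest to the mPFC values, and rat 121445 (squares) has the highest CA1 value of ENSRNOG00000002549.

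The same genes were read in the other libraries of the study, on a scale over all 79 libraries. ENSRNOG00000002549 and ENSRNOG00000018580 were nearly absent from the white matter beside the mPFC, with medians of 0 in young and in aged rats. ENSRNOG00000030111 had a median of 28.5 in white matter of young rats and ENSRNOG00000024310 a median of 210, both between their levels in region CA1 and in the mPFC. In aged rats ENSRNOG00000030111 had medians of 148 in the mPFC and 0 in region CA1, ENSRNOG00000024310 of 817 and 26.6, ENSRNOG00000002549 of 1.21 and 799, and ENSRNOG00000018580 of 1.75 and 307. The mPFC minus CA1 difference in aged rats was 6.66 log2 units (SE 0.223) for ENSRNOG00000030111, 4.87 (SE 0.311) for ENSRNOG00000024310, -8.58 (SE 0.217) for ENSRNOG00000002549 and -6.84 (SE 0.188) for ENSRNOG00000018580. All 4 genes thus differed in the same direction in rats that took no part in naming them.

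Region CA1 varied more from rat to rat than the mPFC did. Over 12464 genes with a mean count of at least 50, the median SD between rats was 0.22 log2 units in the mPFC and 0.35 in region CA1, and 85.8% of these genes had the larger SD in region CA1. Without rat 121413 the medians were 0.21 and 0.34. Without rat 121445 as well they were 0.21 and 0.30, with 76.9% of genes more variable in region CA1. The CA1 libraries were also shallower, and the part of depth in this spread was not tested. The third principal component, with 10.1% of the variance, held the CA1 libraries of rats 2173, 2175, 2176 and 121445 at 20.3 to 43.1 and the other CA1 libraries at -39.7 to -8.35. The mPFC libraries lay at -6.26 to 17.2 on it, apart from that of rat 121413 at 43.6, the highest value of the 22 libraries, so that both libraries of this rat stood apart from those of their region on 1 of these components.

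The alveus, a sheet of myelinated axons, lies on region CA1, and genes of white matter were followed next, on the scale over all 79 libraries. In the 9 aged rats with white matter, 114 genes were at least 2 log2 units higher in white matter than in both the mPFC and region CA1, and averaged 50 normalized counts or more in white matter. None of the young libraries entered this choice. The mean log2 level of these genes in young rats was 5.36 to 6.15 in the mPFC (median 5.68), 6.11 to 7.06 in region CA1 (median 6.57) and 8.12 to 9.02 in white matter. It was higher in region CA1 than in the mPFC in 11 of 11 rats, with differences of the mPFC minus region CA1 from -1.70 to -0.12 log2 units, although the regions overlapped in the value of rat 1920 in the mPFC. The means were 5.71 ± 0.257 in the mPFC and 6.53 ± 0.317 in region CA1 (SD, n = 11 each), and 8.66 ± 0.313 in white matter (SD, n = 8), whose distance from both regions follows from the choice of the genes.

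Of the 114 genes, 72 were called higher in region CA1 (63.2%, beside 17.5% of all genes tested). Only 3 of them were called higher in the mPFC, beside 19.8% of all genes tested. The median difference of the mPFC minus region CA1 over the 114 genes was -0.90 log2 units, beside 0.02 over all genes. Without rats 121413 and 121445 the number called higher in region CA1 was 76, beside 20% of all genes tested. The 72 genes made up 2.45% of the 2944 genes higher in region CA1. The CA1 library of rat 121413, at 6.54, was close to the median of the CA1 libraries in this measure. How far the amount of white matter in the dissected pieces bears on other genes higher in region CA1 was not tested.

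**Figure D4:**
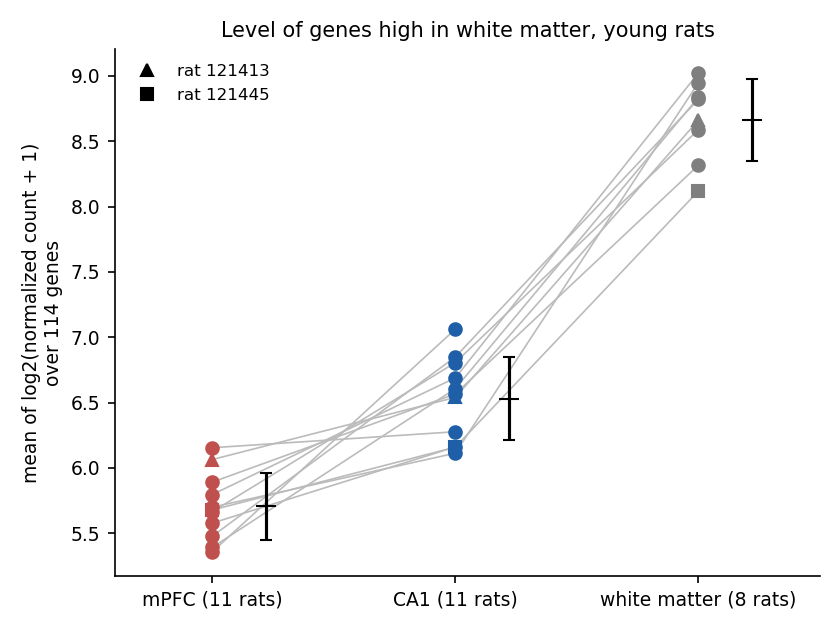
Mean of log2(normalized count + 1) over 114 genes that were high in white matter of aged rats, in the young mPFC, CA1 and white matter libraries, with lines joining the libraries of a rat and black bars giving mean ± SD. All 11 lines rise from the mPFC to region CA1, and white matter lies above both.

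The 20 aged rats gave a second set of paired libraries that the young comparison had not used. In them 7199 of 16704 genes were called (43.1%), 3502 higher in the mPFC (21.0%) and 3697 higher in region CA1 (22.1%), by the same limma fit. A difference of 1 log2 unit or more was reached by 855 genes higher in the mPFC (5.12%) and 758 higher in region CA1 (4.54%). On the regional scale chosen in young rats, the aged mPFC libraries lay between 0.86 and 1.004 and 19 aged CA1 libraries lay between -0.03 and 0.22. The CA1 library of aged rat 2185 lay at 0.50, and without this rat 6962 genes were called in aged rats (41.7%). A CA1 library about midway between the regions was thus found in 1 of 11 young and in 1 of 20 aged rats.

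Of 6214 genes called in young rats that were also tested in aged rats, 5045 were called in the same direction there, which is 81.2% of the young calls and 70.5% of the 7156 aged calls, and 0 were called in the opposite direction. The share grew with the size in young rats. For genes higher in the mPFC it was 79.1% of all 3279, 91.6% of the 1074 with at least 1 log2 unit and 99.7% of the 311 with at least 2. For genes higher in region CA1 it was 83.5% of 2935, 98.1% of 641 and 100% of 143. Without rat 121413 the shares were 74.1% of 3671, 85.8% of 1268 and 99.4% of 347 for the mPFC, and 81.8% of 3175, 97.4% of 730 and 100% of 174 for region CA1. Across the 16565 genes tested in both ages the differences correlated at r = 0.936, a description over genes that are not independent of each other.

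The size of the differences was set side by side in both directions of choice, since genes chosen for a large value tend to be smaller elsewhere. Young and aged differences were fitted with separate size factors, each over the libraries of that age. How far this bears on the sizes was not tested. The 1074 genes at least 1 log2 unit higher in the young mPFC had a median of 1.47 in young and 1.29 in aged rats, and 863 of them were smaller in aged rats. The 846 genes chosen in the same way in aged rats had a median of 1.503 there and of 1.65 in young rats, and 293 (34.6%) were smaller in young rats. For genes higher in region CA1, the 641 chosen in young rats had medians of -1.46 in young and -1.51 in aged rats, and the 749 chosen in aged rats had medians of -1.46 in aged and -1.34 in young rats, with 508 (67.8%) smaller in young rats. Without rat 121413 this last share was 54.0%, and the share for the mPFC was 24.8%. Without this rat the order of the medians for genes chosen in young rats turned on the CA1 side, with -1.47 in young and -1.44 in aged rats over 730 genes, 472 of them smaller in aged rats in place of 326 of 641. On the mPFC side the medians of the 1268 genes chosen without this rat were 1.45 in young and 1.17 in aged rats, and 1117 were smaller in aged rats. Aged rat 2185, with its CA1 library at 0.50 on the regional scale, was kept in all these aged values. Whether the turned order or the sizes depend on rat 2185 was not tested.

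No single gene passed a test of this contrast between the ages. With 1 difference of the mPFC minus region CA1 for each of the 31 rats, 0 of 16712 genes (0%) differed between young and aged rats at a limma adjusted p under 0.05, and 483 had an unadjusted p under 0.05. The edgeR test of the same term gave 0 genes and 369 at an unadjusted p under 0.05, and leaving out rat 121413 gave 0 and 671. Leaving out rats 121413 and 2185 gave 0 and 653. Each of these unadjusted counts is below the number that chance alone gives at this limit. These counts do not show that the region differences were equal in both ages. They say that at 11 and 20 rats no gene stood out from the spread.

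**Figure D5:**
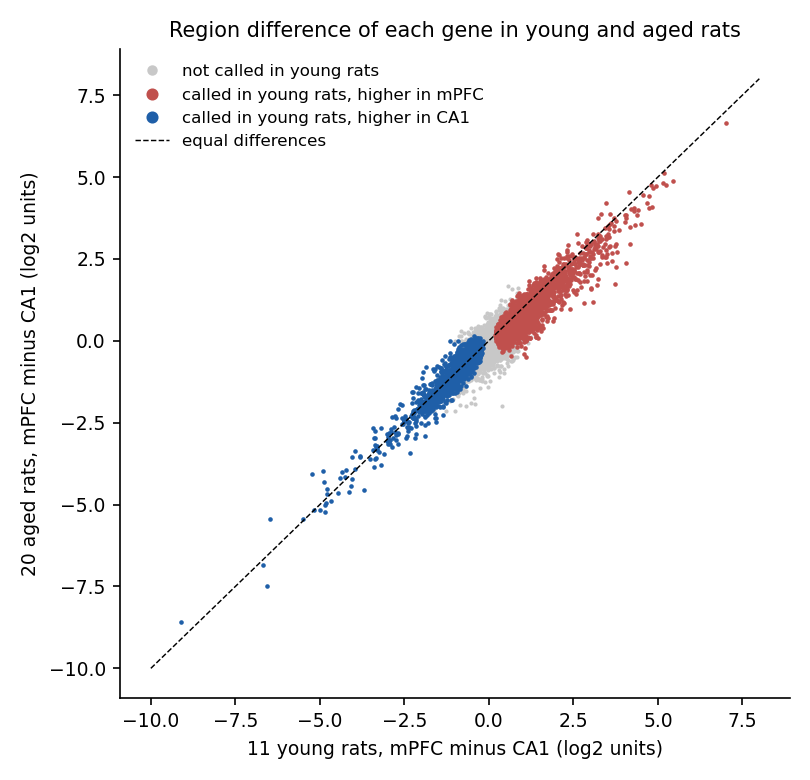
Each point is 1 of 16565 genes, with the difference of the mPFC minus region CA1 in 11 young rats on the horizontal axis and in 20 aged rats on the vertical axis, both in log2 units. Genes called in young rats are red (higher in the mPFC) or blue (higher in region CA1), and none was called in the opposite direction in aged rats. The dashed line marks equal differences. The difference was smaller in aged rats in 2504 of 3279 red genes and in 1732 of 2935 blue genes. These genes were chosen in young rats, and chosen genes tend to be smaller elsewhere. Of genes with at least 1 log2 unit chosen in aged rats, 34.6% of those higher in the mPFC and 67.8% of those higher in region CA1 were smaller in young rats.

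The young rats carry numbers of 3 series, and each was read by itself. Of the 3326 genes called higher in the mPFC, 3202 (96.3%) had the same sign in the mean of each series, and of the 2944 called higher in region CA1, 2766 (94.0%) did. Among genes with a difference of at least 1 log2 unit the shares were 98.9% of 1118 and 98.8% of 649. The median of the 1118 genes was 1.43 log2 units in rats 1918 to 1920, 1.41 in rats 121412 to 121448 and 1.80 in rats 2172 to 2176. The median of the 649 genes was -1.54, -1.33 and -1.65 in the same order. The series with the smallest median on the CA1 side holds both rats whose CA1 libraries stood apart. These shares and medians are over genes called with all 11 rats, which make up the series, so agreement in sign is in part fixed by the choice. No share over all genes tested was taken. The values describe the series and do not test them.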

How the data were processed

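PolyA RNA of the mPFC, region CA1 and white matter was sequenced on the Ion Proton. The authors dropped reads of low quality, used TopHat2 and then Bowtie2 for the alignment to rn5, obtained gene counts from featureCounts and normalized them with DESeq, separately for each region. The deposited signal values are these counts divided by 1 size factor per library. In each of the 79 libraries 100% of the values came out as whole reads within 0.01 reads (largest deviation 6.24e-05 reads). Each library is 1 rat and region, so errors are the spread between rats. Depth was 5.29 to 17.04 M reads on genes in the 22 libraries.

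Reads were divided by median-of-ratios size factors common to the libraries of a comparison. Values of log2(normalized count + 1), of genes with a mean above 5 in either region, were analysed by limma 3.58.1 under R 4.3.3 (trend, two-sided, rat as a block). Pairing comes from the animal number in the library names. Deviations of the 2 libraries of a rat from their region means correlated at -0.178 to 0.293 and were highest with the own partner in 2 of 11 rats, so the block rests on the animal and not on this check. Alternatives used edgeR 4.0.16 and DESeq2 1.42.0 on the whole reads, other scales, pseudocounts, filters, array weights, thinned reads and fewer rats; those without rats 121413, 121445, 1920 or 2185 together or by age were added after seeing the data. The procedure was tested on simulated data. Summaries used pandas 2.3.3 and matplotlib 3.10.9 under Python 3.11.15.

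The comparison, its members and lists were chosen with earlier results of these data known. Genes to be named were to be those with the largest differences, among calls of the same sign in all 11 rats with a mean of at least 50 in the higher region. With 0 of 26689 Ensembl numbers matched to a symbol in the RefSeq table (GRCr8), 2 numbers per direction were named, and 39 planned lists of cell type markers and functions were not run. For the same reason no gene sequences are shown.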

Additional observations from a re-analysis of the deposited data

Results flagged for a closer look

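Groups of 11 and 20 libraries are too large for the test of single far samples used here, so it was applied to the white matter groups alone, in 11 sets of values. In 5 sets a sample lay far from the others. Chance flags about 1 set in 20 only where sets are independent and values are not mostly 0. These sets share libraries, and the flagged sets of ENSRNOG00000002549 and ENSRNOG00000018580 had medians of 0, so the number of flags cannot be read against that rate. The white matter library of aged rat 121437 was highest for ENSRNOG00000030111 (98.2 normalized counts, 75 reads) and for ENSRNOG00000024310 (433 normalized counts, 331 reads), the genes higher in the mPFC, and it also lay nearest to the mPFC among aged white matter libraries on the regional scale (0.75). The same library was highest for ENSRNOG00000018580 (2.62 normalized counts, 2 reads). Young rat 121445 had, in white matter, 9.76 normalized counts of ENSRNOG00000002549 (15 reads), beside 0 to 0.746 in the other young white matter libraries, and the CA1 library of this rat held the highest CA1 value of that gene, 3485 on the same scale over all 79 libraries. Young rat 2172 had, in white matter, 4.25 normalized counts of ENSRNOG00000018580 (3 reads).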

How the results depend on the processing

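In the young comparison no gene called with all 11 rats was called in the opposite direction under any alternative. The count of 6270 called genes stayed between 5336 (without rat 2175) and 6915 (without rat 121413) when each rat was left out in turn, and between 5765 and 7397 under other scales, pseudocounts, filters, tests, array weights and thinned reads. Without the rat as a block, 6489 genes were called, and the pairing changed no call of a named gene. On the deposited scale 4617 genes were higher in region CA1. The series of animal numbers moved the counts most. Rats 1918 to 1920 alone gave 3377 calls (1711 higher in the mPFC and 1666 in region CA1). Rats 121412 to 121448 alone gave 971 calls (612 and 359, of which 455 and 282 with at least 1 log2 unit). Rats 2172 to 2176 alone gave 7496 calls, with 1764 and 1105 genes at 1 log2 unit or more. These fits hold 3 or 4 rats each, and the second series includes rats 121413 and 121445. The depth difference ranged from 3.23 to 4.31 M reads when each rat was left out and was 2.98 M without rats 121413 and 121445 (exact permutation p = 0.0547). The aged count was 7740 without the rat as a block and 7151 with edgeR. Low counts limit the size of the named differences, since 3 of the 4 had a median under 2 normalized counts in the lower region.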
